A study of Mus musculus with 6 samples.

Results

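The chemokine genes of the mouse liver were examined as a family, namely the ligands of the Ccl, Cxcl and Cx3cl series and the receptors of the Ccr, Cxcr and Cx3cr series. Every gene whose symbol is one of these prefixes followed by a number and at most 1 further letter was taken, which gave 55 of the 17975 genes in the table, 38 ligands and 17 receptors. RNA had been sequenced from the whole livers of 3 wild-type (WT) mice and 3 homozygous (Hom) mice, which carry the NEK7 fl/fl allele together with Alb-Cre. The albumin promoter drives Cre in hepatocytes, so that Nek7, which encodes the NIMA-related kinase NEK7, is deleted there and remains intact in the other cells of the liver. The floxed and Cre lines were on a C57BL/6 background, and both sexes were used in the study's knockout experiments. The study's general statement on its animals gives an age of 6 to 10 weeks. However, the paper describes the liver phenotype of Hom mice that were several months old. The age and sex of the individual sequenced mice are not given in the sources used here. No treatment is named for either group, and each mouse gave 1 liver.

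Chemokines are small secreted or membrane-tethered proteins that guide cells along a gradient, and their receptors are G protein-coupled receptors that signal through Gi proteins to move the cell. In the liver, ligands can come from hepatocytes, bile duct cells, endothelial cells, stellate cells and resident macrophages, whereas most of the receptors are carried by blood-derived leukocytes. The question put to the data was which members of this network differed between Hom and WT livers, and by how much.

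The 6 libraries held between 19349418 and 19730236 estimated read counts. Values are given as library-scaled counts (CPM), adjusted with TMM factors, which correct for the composition of each library and were 0.806 to 0.924 in WT and 1.09 to 1.23 in Hom livers. Nek7 fell from 65.2 ± 3.36 CPM in WT to 16.4 ± 1.83 CPM in Hom livers (SD, n = 3 mice each), a log2 fold change of -1.99 (SE 0.10, adjusted p = 0.000159, edgeR's quasi-likelihood test, Benjamini-Hochberg adjusted over all tested genes, as is every adjusted p given here). A pair of livers stood apart from their groups. WT replicate 1 had summed CPM of 204 over the neutrophil markers, against 7.18 and 13.1 in the other WT livers, and Hom replicate 1 had 0 counts of the Y-linked genes Ddx3y and Kdm5d, which had at least 243 counts in each of the other 5 livers.

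Of the 55 genes, 34 had enough counts to be tested. Among these, 17 passed an adjusted p of 0.05 with a higher level in Hom livers, 4 were lower and 13 did not pass the threshold. These were 50.0% and 11.8% of the tested members, where 21.5% of all 13805 tested genes were higher and 20.1% were lower. The median log2 fold change was 1.50 over the 34 members and -0.00 over all tested genes. All 17 higher members also had a log2 fold change of at least 1, a requirement met by 13.2% of all tested genes in that direction. The 3 Hom livers lay above the 3 WT livers without overlap for 21 of the 34 and below them for 4, and these shares were 28.7% and 27.0% over all tested genes. Some members could be tested only through their level in Hom livers, since 5 had under 10 counts in every WT liver and 4 of those were higher. Of the 29 members with 10 or more counts in a WT liver, 13 were higher and 4 were lower. RNA was taken from bulk tissue, in which fewer cells of a type and less RNA per cell cannot be told apart.

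**Figure D1:**
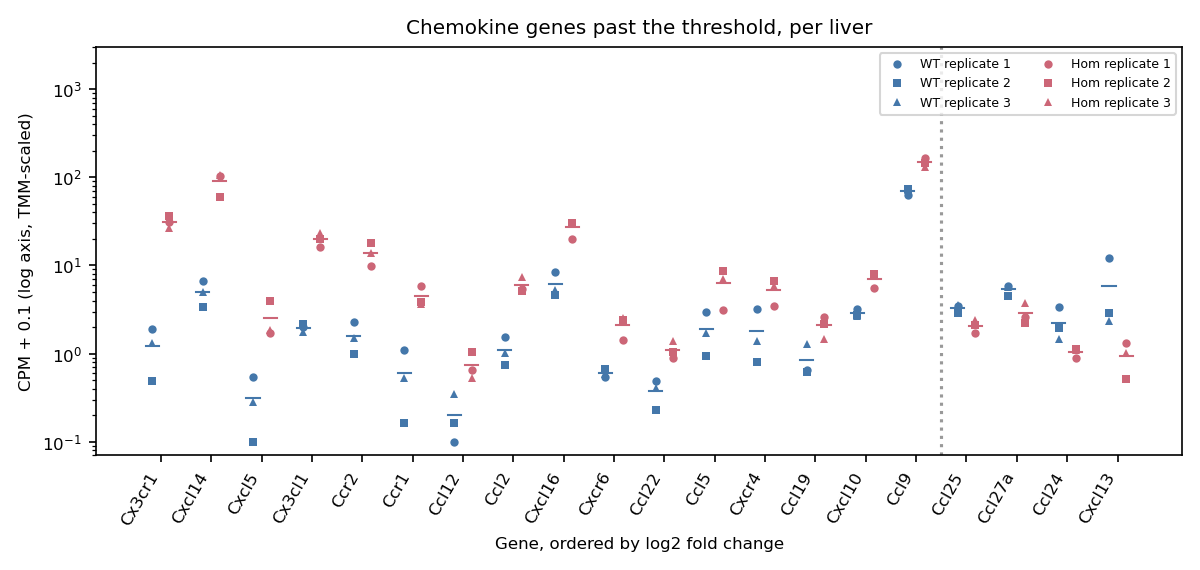
TMM-scaled CPM of 20 of the chemokine genes past the threshold in each of the 6 livers, plotted as CPM + 0.1 on a log axis and ordered by log2 fold change, with 1 symbol per liver and a horizontal bar at each group mean. The 16 genes to the left of the dotted line were higher in Hom livers, from Cx3cr1 with a mean of 1.13 CPM in WT and 31.3 CPM in Hom to Ccl9 with means of 69.2 and 148 CPM, and the 4 genes to the right were lower.

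The counts changed with the library scaling. With library size alone in place of TMM factors, the median of all genes moved to a log2 fold change of 0.45, 47.6% of tested genes were higher and 4.65% were lower, and the share of all calls that were higher rose from 51.7% to 91.1%. Under that scaling 14 ligands and 7 receptors were higher, and 1 ligand was lower. The directions of the higher members reported here were the same under both scalings.

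Among the 26 tested ligands, 11 were higher, 4 were lower and 11 did not pass, with a median log2 fold change of 1.06 and a range from -2.76 to 4.18. The highest ligand level in both groups was that of Cxcl12, the ligand of Cxcr4 that retains leukocytes and progenitor cells in tissues. Per gene length (TPM, which scales every library to the same total), Cxcl12 made up 55.6%, 61.3% and 50.1% of the summed ligand level in WT replicates 1, 2 and 3, and 35.8%, 32.4% and 33.6% in the Hom replicates. Its CPM was 372, 315 and 268 in the WT livers and 326, 256 and 295 in the Hom livers. These values overlapped, and the log2 fold change of -0.12 (SE 0.15, adjusted p = 0.554) did not pass the threshold. That sign depended on the scaling, with 0.32 for library size alone. In WT livers Cxcl12 was followed per length by Ccl9 (mean 33.5 TPM), Cxcl1 (14.8), Ccl27a (14.6) and Ccl6 (14.3), and in Hom livers by Cxcl14 (110.0), Ccl9 (110.0), Cxcl1 (43.1) and Cxcl16 (41.7).

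Cxcl14, a CXC chemokine of epithelial cells and fibroblasts, had the largest difference of any tested ligand. It was at 6.53, 3.27 and 4.85 CPM in WT replicates 1, 2 and 3 and at 103, 59.9 and 106 CPM in Hom replicates 1, 2 and 3. Every Hom liver was therefore far above every WT liver, and the difference was 18.2-fold (log2 fold change 4.18, SE 0.32, adjusted p = 0.000375). Cxcl16, a transmembrane ligand of Cxcr6 that can be shed from the cell surface, was at 8.43, 4.49 and 5.16 CPM in WT and at 19.7, 30.4 and 30.5 CPM in Hom livers. It rose 4.44-fold (log2 fold change 2.15, SE 0.28, adjusted p = 0.00174) with no overlap between the groups.

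Cx3cl1 encodes fractalkine, which is anchored in the membrane by a mucin stalk, serves as an adhesion molecule in that form and attracts cells once it is cleaved. The WT livers were close together at 1.90, 2.05 and 1.66 CPM, and the Hom livers were at 16.2, 19.7 and 23.4 CPM. Cx3cl1 rose 10.6-fold (log2 fold change 3.40, SE 0.19, adjusted p = 0.000159). Its receptor Cx3cr1, which marks patrolling monocytes and tissue macrophages, had the largest difference among the tested members of the family. It was at 1.79, 0.385 and 1.23 CPM in WT and at 31.3, 36.2 and 26.3 CPM in Hom livers, a 27.0-fold difference (log2 fold change 4.75, SE 0.39, adjusted p = 0.000462).

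The CXC ligands with the ELR motif act on Cxcr2 and mainly attract neutrophils. Of 3 tested members of this class, Cxcl5 rose, and Cxcl1 and Cxcl2 did not pass the threshold. Cxcl5 had 0.447, 0 and 0.184 CPM in WT livers and 1.63, 3.88 and 1.77 CPM in Hom livers, with a log2 fold change of 3.44 (SE 0.77, adjusted p = 0.0125) that rested on low counts and had an adjusted p of 0.0508 without Hom replicate 2. Without WT replicate 1 it was 4.60 (adjusted p = 0.0118). Cxcl1 was at 13.1, 10.6 and 3.32 CPM in WT and at 13.1, 14.3 and 25.1 CPM in Hom livers. WT replicate 1 and Hom replicate 1 were level, and the log2 fold change of 0.95 (SE 0.48) had an adjusted p of 0.151. For Cxcl2 the log2 fold change was 0.24 (SE 0.58, adjusted p = 0.767), and for the receptor Cxcr2 it was -0.12 (SE 0.27, adjusted p = 0.741). Cxcr2 was at 3.08 to 5.86 CPM in WT and 3.55 to 5.03 CPM in Hom livers, and its sign became positive with library size alone (0.32) and without WT replicate 1 (0.07).

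Cxcl9 and Cxcl10 are induced by interferons and recruit activated T cells and NK cells through Cxcr3. Cxcl10 was at 3.07, 2.63 and 2.58 CPM in WT and at 5.51, 7.87 and 7.41 CPM in Hom livers, and rose 2.51-fold (log2 fold change 1.33, SE 0.20, adjusted p = 0.00286). Cxcl9 differed among the Hom livers themselves, at 8.12, 43.6 and 23.5 CPM, against 14.2, 7.95 and 14.6 CPM in WT livers. Its log2 fold change of 1.03 (SE 0.56) had an adjusted p of 0.175, of 0.0213 without Hom replicate 1 (log2 fold change 1.45) and of 0.585 without Hom replicate 2 (0.37). Cxcr3 was at 1.17, 0.321 and 0.123 CPM in WT and at 1.45, 1.77 and 2.67 CPM in Hom livers. The groups did not overlap, but the log2 fold change of 1.83 (SE 0.67, adjusted p = 0.0642) passed the threshold only without WT replicate 1 (3.12, adjusted p = 0.0083), with library size alone (adjusted p = 0.0321) and with DESeq2 (adjusted p = 0.03).

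Short upstream sequences are shown for members with a match to 1 of 2 motifs of inducible promoters, so that the matches can be read beside the values above. The motifs searched were an NF-kB-type motif (GGG, any 3 bases, then TTCC) and an interferon-response-type motif (GAAA, any 2 bases, then GAAA), on both strands of the 250 bases before the RefSeq transcription start (build GRCm38.p6), which were available for 40 of the 55 members. The NF-kB-type motif was present before 9 of 40 members (22.5%) and before 5.31% of all 27025 genes with a window, and the interferon-response-type motif before 3 of 40 members (7.5%) and 3.46% of all genes. By call, the NF-kB-type motif was present in 2 of 12 higher members, Cxcl10 and Ccl9, in 2 of 12 members that did not pass, Cxcl1 and Cxcl2, in 0 of 3 lower members and in 5 of 13 members that were not tested (38.5%). The interferon-response-type motif was found before Cxcl10, Cxcl14 and Ccl19. Each sequence runs 5′ to 3′ and ends at the base before the start, with matches in capitals.
Cxcl10, chr5:92348890-92349139, minus strand: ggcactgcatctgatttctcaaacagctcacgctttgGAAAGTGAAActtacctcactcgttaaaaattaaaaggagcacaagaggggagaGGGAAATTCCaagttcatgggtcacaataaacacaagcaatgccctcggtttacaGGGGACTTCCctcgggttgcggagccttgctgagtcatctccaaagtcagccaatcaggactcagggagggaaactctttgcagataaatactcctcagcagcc
Cxcl14, chr13:56296552-56296801, minus strand: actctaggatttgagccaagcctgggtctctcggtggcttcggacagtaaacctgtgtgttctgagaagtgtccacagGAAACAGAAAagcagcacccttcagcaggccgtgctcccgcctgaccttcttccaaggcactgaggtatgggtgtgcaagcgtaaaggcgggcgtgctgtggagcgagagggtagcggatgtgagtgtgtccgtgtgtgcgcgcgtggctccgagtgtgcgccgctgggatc
Ccl9, chr11:83578637-83578886, minus strand: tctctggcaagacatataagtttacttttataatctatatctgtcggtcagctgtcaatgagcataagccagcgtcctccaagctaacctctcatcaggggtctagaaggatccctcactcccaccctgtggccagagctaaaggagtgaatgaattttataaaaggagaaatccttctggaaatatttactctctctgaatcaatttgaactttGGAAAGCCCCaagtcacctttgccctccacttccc
Cxcl1, chr5:90890995-90891244, plus strand: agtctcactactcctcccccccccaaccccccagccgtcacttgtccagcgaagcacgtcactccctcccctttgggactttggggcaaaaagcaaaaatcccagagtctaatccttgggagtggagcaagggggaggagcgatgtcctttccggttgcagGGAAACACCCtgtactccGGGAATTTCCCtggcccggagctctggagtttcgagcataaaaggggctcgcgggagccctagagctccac
The capitals of Cxcl10 mark the interferon-response-type match, which begins 213 bases before the start, and NF-kB-type matches that begin 159 and 104 bases before it. In Cxcl14 the capitals mark an interferon-response-type match at 172 bases, and in Ccl9 an NF-kB-type match at 35 bases, read on the opposite strand. In Cxcl1, NF-kB-type matches begin 89, 71 and 70 bases before the start, and the last of these overlap on opposite strands. A match to these letters is a description of the sequence, and binding was not measured.

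Ccr2 and its ligands bring inflammatory monocytes out of the blood. Ccl2, the main ligand of this receptor, was at 1.45, 0.641 and 0.922 CPM in WT and at 5.32, 5.07 and 7.24 CPM in Hom livers, and rose 5.78-fold (log2 fold change 2.53, SE 0.33, adjusted p = 0.0017). Ccl12, a further ligand of Ccr2 in the mouse, also rose (log2 fold change 2.61, SE 0.81, adjusted p = 0.039), but from 5 counts over the 3 WT livers to 45 over the 3 Hom livers. This call was lost when any liver but WT replicate 3 was left out (adjusted p 0.0632 to 0.137), and the log2 fold change was 2.01 without WT replicate 1 and 4.18 without WT replicate 3. Ccl7 had 10 counts in all WT and 52 in all Hom livers, with a log2 fold change of 1.86 (SE 0.88, adjusted p = 0.13) that was 1.25 without WT replicate 1 and 4.39 without WT replicate 3 (adjusted p = 0.212 and 0.012). Ccl8 was at 5.90 CPM in WT replicate 3 and at 0.223 and 0.192 CPM in the other WT livers, and it did not pass the threshold (log2 fold change -0.55, SE 1.40, adjusted p = 0.774). The receptor Ccr2 was at 2.18, 0.898 and 1.41 CPM in WT and at 9.66, 17.9 and 13.8 CPM in Hom livers. All 3 Hom livers exceeded all WT livers by a wide margin, and the rise was 9.11-fold (log2 fold change 3.19, SE 0.36, adjusted p = 0.00112).

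A further group of CC ligands attracts monocytes, macrophages and T cells. Ccl9, a CC ligand of Ccr1 found in rodents, was already the second ligand per length in WT livers, at 62.7, 72.7 and 72.1 CPM, and was at 165, 145 and 132 CPM in Hom livers. It rose 2.13-fold with little spread inside each group (log2 fold change 1.09, SE 0.11, adjusted p = 0.000806). Its relative and chromosomal neighbour Ccl6 was at 17.7, 7.83 and 14.7 CPM in WT and at 24.6, 20.8 and 19.7 CPM in Hom livers. Although the groups did not overlap, the log2 fold change of 0.69 (SE 0.28) had an adjusted p of 0.0828, and it passed with library size alone (0.0186), with DESeq2 (0.0417) and without WT replicate 1 (0.0355). Ccl5 (RANTES), which is made by T cells and NK cells among others, was at 2.90, 0.834 and 1.60 CPM in WT and at 2.99, 8.45 and 6.98 CPM in Hom livers, so that Hom replicate 1 was nearly level with WT replicate 1. It rose 3.42-fold (log2 fold change 1.78, SE 0.53, adjusted p = 0.0333), a call lost without Hom replicate 2 or 3 or WT replicate 2 or 3 (adjusted p 0.0877 to 0.106). Ccl3 did not pass (log2 fold change 0.89, SE 0.90, adjusted p = 0.458), nor without WT replicate 3 (2.03, adjusted p = 0.168).

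The receptor Ccr1 was at 1.01, 0.0641 and 0.430 CPM in WT and at 5.79, 3.79 and 3.58 CPM in Hom livers, an 8.48-fold rise from 26 counts over the WT livers (log2 fold change 3.08, SE 0.64, adjusted p = 0.0093). WT replicate 1 held 18 of those counts, and without it the log2 fold change was 4.09 (adjusted p = 0.00473). Each Hom liver was above each WT liver.

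Cxcr6, carried by liver-resident T cells and NKT cells, was at 0.447, 0.577 and 0.492 CPM in WT and at 1.31, 2.31 and 2.46 CPM in Hom livers, and rose 3.99-fold (log2 fold change 2.00, SE 0.35, adjusted p = 0.0052). Cxcr4, the receptor of Cxcl12 on many leukocytes, was at 3.07, 0.706 and 1.29 CPM in WT and at 3.36, 6.51 and 5.69 CPM in Hom livers. The lowest Hom liver lay just above the highest WT liver, and the 3.04-fold rise (log2 fold change 1.60, SE 0.52, adjusted p = 0.0436) was lost without Hom replicate 2 or 3 or WT replicate 2 or 3 (adjusted p 0.0988 to 0.127). Without WT replicate 1 the log2 fold change was 2.36 (adjusted p = 0.00833).

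Of the remaining CC ligands, Ccl22 and Ccl19 rose. Ccl22, a dendritic cell and macrophage product that acts on Ccr4, was at 0.391, 0.128 and 0.307 CPM in WT and at 0.793, 0.948 and 1.29 CPM in Hom livers (log2 fold change 1.84, SE 0.45, adjusted p = 0.0173). Ccl19, a ligand of Ccr7 that positions T cells and dendritic cells in lymphoid tissue, was at 0.558, 0.513 and 1.17 CPM in WT and at 2.52, 2.06 and 1.38 CPM in Hom livers (log2 fold change 1.41, SE 0.41, adjusted p = 0.0323). Both had few counts, 14 and 37 over the WT livers. The Ccl22 call was lost without Hom replicate 2, Hom replicate 3 or WT replicate 2 (adjusted p 0.0507 to 0.0765), and the Ccl19 call without Hom replicate 1 or 2 or WT replicate 1 or 2 (0.0839 to 0.105). The related Ccl21a ranged from 0.279 to 2.83 CPM in WT and from 1.64 to 5.93 CPM in Hom livers and did not pass (log2 fold change 1.62, SE 0.78, adjusted p = 0.134), and without WT replicate 3 its log2 fold change was 2.75 (adjusted p = 0.0376). Ccl28 (log2 fold change 0.47, SE 0.59, adjusted p = 0.548) and Ccl27b (-0.39, SE 0.68, adjusted p = 0.676) did not pass either. The Ccl21 and Ccl27 genes have near-identical copies between which reads may be divided, and Ccl21c and Ccl21d had the same counts in all 6 livers, so that single values of these genes are uncertain.

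The 4 lower members were all ligands. Cxcl13, the B cell attractant that acts on Cxcr5, was at 12, 2.82 and 2.27 CPM in WT and at 1.21, 0.412 and 0.905 CPM in Hom livers. WT replicate 1 was highest by far, and each Hom liver was also below the other WT livers. The log2 fold change was -2.76 (SE 0.75, adjusted p = 0.0242), and -1.60 without WT replicate 1 (adjusted p = 0.0377). Ccl24 (eotaxin-2), an eosinophil attractant that acts on Ccr3, was at 3.24, 1.86 and 1.35 CPM in WT and at 0.793, 1.03 and 0.991 CPM in Hom livers (log2 fold change -1.19, SE 0.38, adjusted p = 0.0401). Ccl27a, a ligand of Ccr10, was at 5.70, 4.43 and 5.59 CPM in WT and at 2.52, 2.14 and 3.66 CPM in Hom livers (log2 fold change -0.92, SE 0.25, adjusted p = 0.0252). Ccl25, the ligand of Ccr9 that guides gut-homing T cells, was at 3.35, 2.76 and 3.44 CPM in WT and at 1.63, 2.02 and 2.28 CPM in Hom livers (log2 fold change -0.68, SE 0.23, adjusted p = 0.0472). None of the 4 kept its call in every alternative run. Cxcl13 lost it only without Hom replicate 2 or 3 (adjusted p 0.0748 to 0.0781) and kept it in the other settings. The Ccl27a call was lost without 4 of the livers (0.0561 to 0.0803), and with library size alone or the gene length correction (0.0709 to 0.194). That of Ccl24 was lost when any liver other than WT replicate 3 was left out (0.0774 to 0.109), and in 5 other settings (0.0533 to 0.168). That of Ccl25 was lost when any of the 6 livers was left out (0.0664 to 0.122), and in 6 other settings (0.0604 to 0.501).

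**Figure D2:**
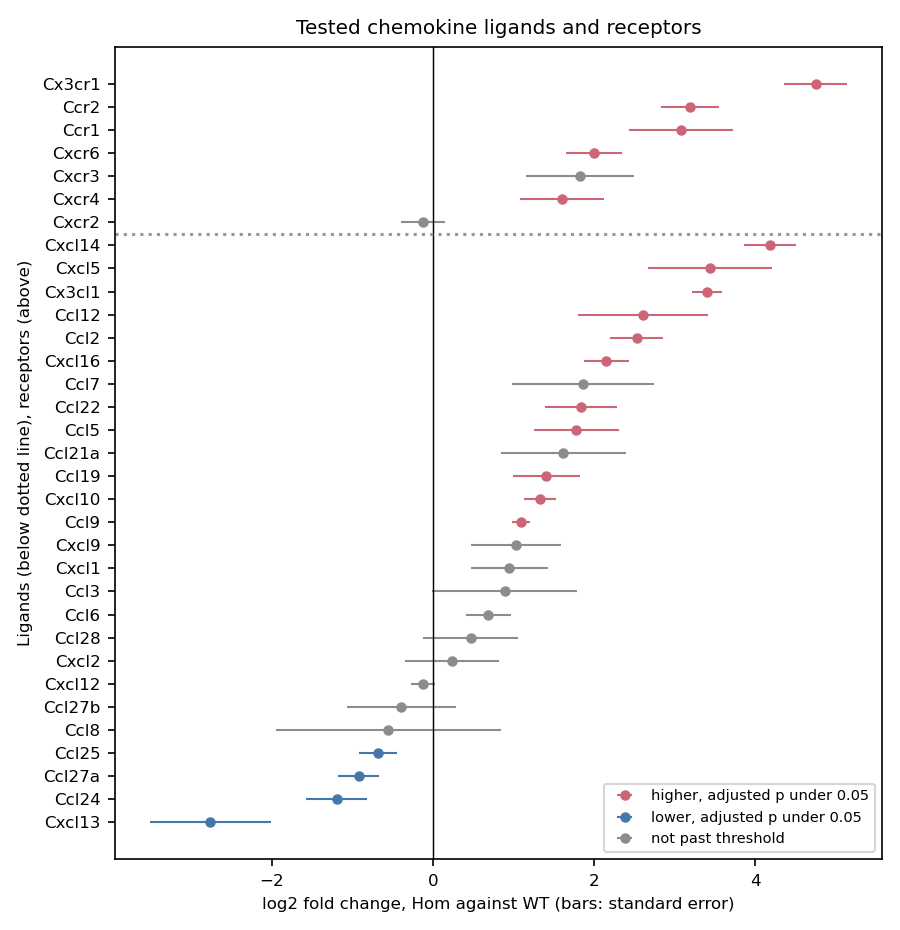
Log2 fold change (horizontal axis, Hom against WT, TMM-scaled) of 33 of the tested chemokine genes, with bars of 1 standard error, receptors above and ligands below the dotted line, and colours for genes that were higher, lower or not past the threshold. The values run from -2.76 for Cxcl13 to 4.75 for Cx3cr1, and 11 of 26 tested ligands were higher.

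Among the receptors, 8 of 17 were tested, of which 6 were higher and 0 were lower, with a median log2 fold change of 2.06. The summed receptor level was 22.3, 8.79 and 13.4 CPM in WT replicates 1, 2 and 3 and 69.3, 94.4 and 77.5 CPM in the Hom replicates, so that the groups did not overlap. The summed ligand level was 535, 445 and 421 CPM in WT and 719, 639 and 702 CPM in Hom livers. The receptor with the highest level per length was Cxcr2 in WT replicates 2 and 3, and in each Hom liver it was Cx3cr1, with 39.5%, 31.9% and 27.9% of the summed receptor TPM. Without WT replicate 1, in which receptor levels were the highest of the WT group, 8 receptors were higher among those tested in that fit, and without Hom replicate 1 it was 7.

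Receptors and ligands were then set side by side in 31 known pairs, of which 16 had both partners tested. Both were higher in 6 pairs, among them Cx3cr1 with Cx3cl1, Ccr2 with Ccl2, Ccr2 with Ccl12, Ccr1 with Ccl9, and Cxcr6 with Cxcl16. In 5 pairs the receptor passed the threshold without the ligand, among them Cxcr4 with Cxcl12, in 2 the ligand passed without the receptor, Cxcl5 for Cxcr2 and Cxcl10 for Cxcr3, and in 3 neither did. For the 4 lower ligands, no listed receptor had enough counts to be tested. Pairs share partners and are not independent of each other.

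**Figure D3:**
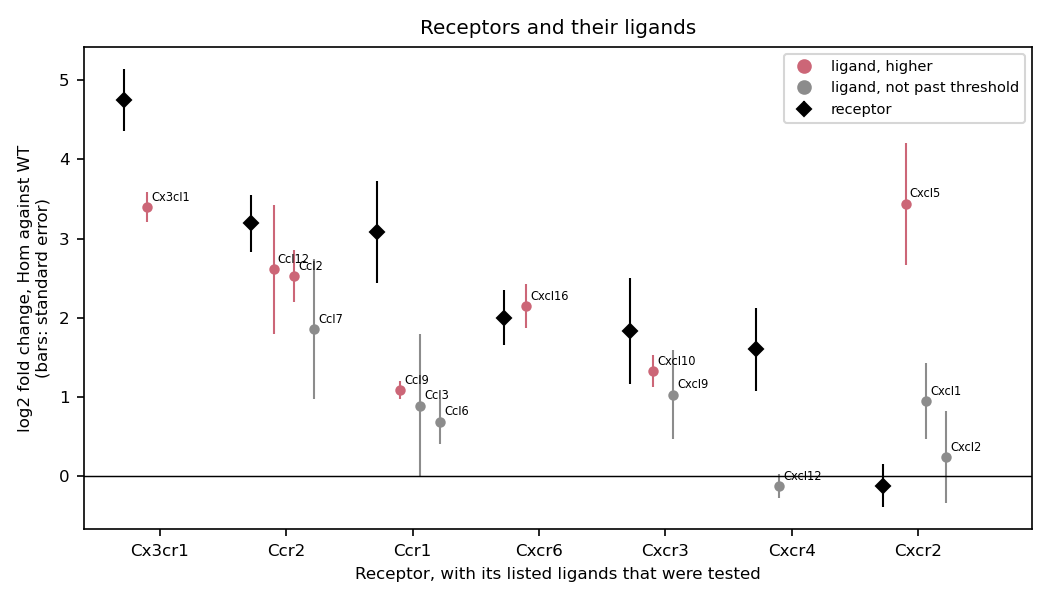
Log2 fold change (vertical axis, Hom against WT, bars of 1 standard error) of 7 tested receptors, drawn as black diamonds, each followed to its right by its listed ligands that were tested, drawn as circles. Cx3cr1 (4.75) and Cx3cl1 (3.40) were both high, Cxcr4 (1.60) stood beside Cxcl12 (-0.12), and Cxcr2 (-0.12) beside Cxcl5 (3.44).

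The 21 members that were not tested had at most 7 counts in any WT liver and at most 46 in any Hom liver. In 5 of the 21, Ccl4, Ccl20, Ccr3, Ccr7 and Cxcr1, every Hom liver was above every WT liver, as it was in 12.6% of all 4170 genes that were not tested, and in 0 was every Hom liver below. Ccl20, the ligand of Ccr6, had 0, 0 and 1 counts in WT and 6, 31 and 24 counts in Hom livers. Ccl4, which attracts monocytes and T cells, had 5, 1 and 6 counts in WT and 10, 43 and 9 counts in Hom livers, and Ccr7, the receptor of Ccl19, had 5, 2 and 3 counts in WT and 9, 20 and 18 counts in Hom livers. Ccr3 had no WT count and 3, 8 and 1 counts in Hom livers, which at a floor of 3 counts over the WT group was at least 2.89-fold higher. Cxcl17 also had no WT count, with 10, 0 and 3 counts in Hom livers (at least 3.13-fold higher by the same floor), and Ccr8 had 0 counts in WT and 5 in Hom livers in all. The fold bounds of Ccr3 and Cxcl17 compare pooled counts and take no account of the spread between mice. Ccl21b had 46 counts in Hom replicate 1 and 7 in WT replicate 3, and 0 in every other liver. With no filter on low counts all 55 genes were tested, and 2 of these 21 passed, Ccl20 (log2 fold change 5.05, SE 1.06, adjusted p = 0.0103) and Ccr7 (1.73, SE 0.54, adjusted p = 0.0451). Cxcl17 (4.99, SE 2.22, adjusted p = 0.151) and Ccr3 (4.82, SE 1.67, adjusted p = 0.0815) did not pass in that fit. For Ccl1, Ccl11, Ccl17, Ccl26, Cxcl3, Cxcl15, Ccr4, Ccr6, Ccr9, Ccr10 and Cxcr5, no difference was detectable at this depth in that fit. Where leaving out a liver let these genes be tested, Ccl20 passed each time. Ccr7 did not pass without WT replicate 2 (adjusted p = 0.089) or WT replicate 3 (0.0732).

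Many chemokine genes lie in clusters. All 55 were placed on a chromosome through RefSeq (GRCm38.p6). Chromosome 9 held 10 members, all of them receptors, and each of its 5 tested members was higher. On chromosome 11, which held 14 members and both CC ligand clusters, 5 of 9 tested members were higher and 0 were lower. In the run of Ccl2, Ccl7, Ccl11, Ccl12, Ccl8 and Ccl1, which are adjacent protein-coding genes, 2 of 4 tested members were higher, and in the run of Ccl5, Ccl9, Ccl6, Ccl3 and Ccl4 it was also 2 of 4. On chromosome 8, Ccl22 and Cx3cl1 lie beside each other and were both higher. On chromosome 5, 2 of 7 tested members were higher (Cxcl5 and Cxcl10) and 2 were lower (Cxcl13 and Ccl24). These counts stand beside 21.5% higher and 20.1% lower over all tested genes.

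The chemokine genes were read beside markers of the cells that carry them. For every marker list below, the shares over all tested genes were 21.5% higher and 20.1% lower. Of the monocyte and macrophage markers 7 of 14 were higher and 0 were lower (median log2 fold change 1.52), with the largest differences for Ms4a7 (3.62, SE 0.31, adjusted p = 0.000498) and Trem2 (3.31, SE 0.45, adjusted p = 0.00202), both expressed by monocyte-derived macrophages. Their summed level was 204 to 419 CPM in WT and 682 to 842 CPM in Hom livers. The count was 4 without Hom replicate 2 or WT replicate 2, and 11 without WT replicate 1. Of the Kupffer cell markers, which mark the resident macrophages, 3 of 8 were lower, 0 were higher and 5 did not pass (median -1.23), and the count of lower genes was 1 without Hom replicate 3. The lower genes were Cd163 (-2.89, SE 0.65, adjusted p = 0.0129), Timd4 (-2.38, SE 0.54, adjusted p = 0.0126) and Clec4f (-1.59, SE 0.44, adjusted p = 0.0271). Their sum was 209 to 519 CPM in WT and 178 to 222 CPM in Hom livers, so that the groups overlapped.

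T cell markers were higher for 7 of 10 tested genes (median 1.74; Cd2 2.31, SE 0.39, adjusted p = 0.00437), and their summed level was 7.18 to 8.66 CPM in WT and 13.4 to 22.0 CPM in Hom livers. Cd2 had only 5, 3 and 3 counts in the WT livers and could be tested only through its level in Hom livers. Pan-leukocyte markers were higher for 4 of 5, with Ptprc (CD45) at a log2 fold change of 1.62 (SE 0.46, adjusted p = 0.0299), and sums of 44.4 to 113 and 122 to 197 CPM. Of the dendritic cell markers 1 of 7 was higher (Itgax, 2.97, SE 0.44, adjusted p = 0.00272), of the B cell and plasma cell markers 1 of 5 (Jchain, 2.17, SE 0.65, adjusted p = 0.0338), and of the NK cell markers 0 of 5. Without WT replicate 1 these counts were 2, 3 and 1, and the B cell and plasma cell count was 0 without Hom replicate 2 or WT replicate 2 or 3. None of the 8 tested neutrophil markers passed (median -0.14), with sums of 7.18 to 204 CPM in WT and 25.7 to 74.8 CPM in Hom livers, and 4 were higher without WT replicate 1. Without Hom replicate 2 or 3 or WT replicate 2 or 3, 1 or 2 of the T cell markers and 0 of the pan-leukocyte markers passed.

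In the other cells of the liver, cholangiocyte markers, of the bile duct epithelium, were higher for 9 of 11 genes (median 2.97; Cftr 4.20, SE 0.44, adjusted p = 0.000913; Spp1 3.78, SE 0.29, adjusted p = 0.000369), with sums of 75.6 to 106 CPM in WT and 635 to 896 CPM in Hom livers. Cftr had only 2, 7 and 4 counts in the WT livers and could be tested only through its level in Hom livers. Most of the Hom sum was Spp1 (520 to 733 CPM), and without it the sums were 46.3 to 51 and 114 to 163 CPM. Stellate cell and myofibroblast markers were higher for 7 of 14 (median 1.06; Col1a1 3.32, SE 0.20, adjusted p = 0.0002). In this list 1 gene was lower (Reln -1.55, SE 0.21, adjusted p = 0.00184) and 6 did not pass. Sinusoidal endothelial markers were lower for 8 of 13 (median -0.88; Clec4g -2.13, SE 0.19, adjusted p = 0.000548). Hepatocyte markers were lower for 11 of 17 (median -0.72; Cyp2e1 -2.95, SE 0.48, adjusted p = 0.00406), or for 7 without Hom replicate 3. With library size alone, 6 hepatocyte markers were lower and 1 was higher. The hepatocyte marker sum of 102901 CPM or more in every liver showed hepatocyte RNA in each of the livers. The part of these markers in the differences of the chemokine genes was not tested.

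**Figure D4:**
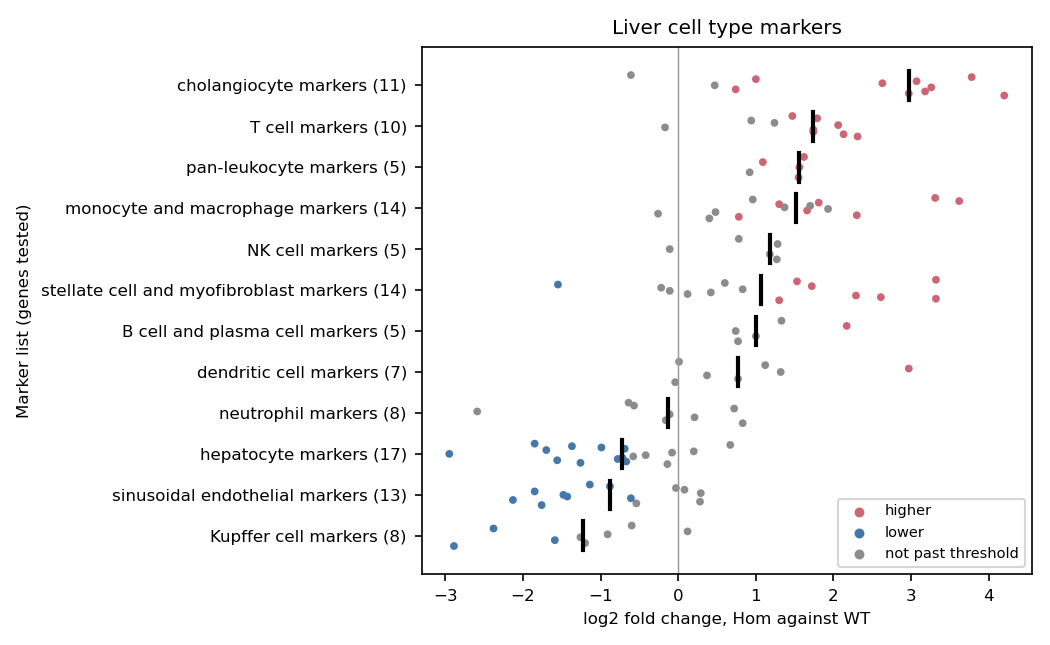
Log2 fold change (horizontal axis, Hom against WT, TMM-scaled) of the tested marker genes of 12 cell type lists, with 1 point per gene, the number of genes tested in brackets and a black bar at the median of each list. The medians run from -1.23 for Kupffer cell markers to 2.97 for cholangiocyte markers.

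The chemokine system extends to atypical receptors, which bind chemokines without driving movement, and to genes outside the naming series. Of 10 such genes tested, 3 were higher and 1 was lower, with a median log2 fold change of 0.50. Over all tested genes, 21.5% were higher and 20.1% were lower. Pf4, a platelet and megakaryocyte CXC chemokine, had a log2 fold change of 1.47 (SE 0.38, adjusted p = 0.0214), Ackr3, a scavenger of Cxcl12, of 1.37 (SE 0.36, adjusted p = 0.0229), and Ccrl2, which binds chemerin, of 1.03 (SE 0.33, adjusted p = 0.0401). Ackr2, a scavenger of inflammatory CC ligands, was lower (-0.94, SE 0.28, adjusted p = 0.0322). The count of lower genes was 0 when any liver other than WT replicate 1 was left out, and that of higher genes was 0 without WT replicate 2.

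Of 44 tested genes that carry the signal from the receptor, 16 were higher and 1 was lower, with a median of 0.45, and 10 were higher without Hom replicate 2 or WT replicate 2. For this list and those that follow, the shares over all tested genes were 21.5% higher and 20.1% lower. The largest differences among the higher genes were for Pak1, a kinase downstream of Rac and Cdc42 (2.55, SE 0.26, adjusted p = 0.000806), and Rgs2, a regulator of G protein signalling (2.21, SE 0.39, adjusted p = 0.0051), and the lower gene was Rgs16, of the same family (-3.03, SE 0.60, adjusted p = 0.00783). Of 7 tested cytokines that induce chemokines, 3 were higher, namely Ltb (3.36, SE 0.41, adjusted p = 0.0014), Tnf (2.22, SE 0.46, adjusted p = 0.00939) and Csf1 (1.98, SE 0.22, adjusted p = 0.00108), and Il18 was lower (-0.56, SE 0.13, adjusted p = 0.012). Tnf had only 5, 3 and 5 counts in the WT livers and could be tested only through its level in Hom livers. Of 10 transcription factors that act on chemokine promoters, 6 were higher and 1 was lower. Relb (2.51, SE 0.39, adjusted p = 0.00323) and Jun (1.58, SE 0.17, adjusted p = 0.000895) had the largest rises, and Cebpb was lower (-0.92, SE 0.15, adjusted p = 0.00385). With library size alone no gene of the cytokine and transcription factor lists was lower.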

How the data were processed

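Liver RNA of 6 mice, 3 of each genotype, was sequenced on the DNBSEQ platform. The submitters' processing notes list HISAT2 2.0.4, Bowtie2 2.2.5, RSEM 1.2.12 and the mouse build mm9, without saying what each was used for, and strandedness and annotation are not given in the sources used here. The authors deposited expected counts (65.9% were whole numbers), FPKM and TPM for 17975 genes in each liver. FPKM from the authors served only to recover gene length, and the deposited TPM values were used to rank levels and give shares within a liver or group and to choose genes to name. The authors' group means have crossed names in all 17975 genes and were not used.

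Counts were rounded to whole numbers. Genes were filtered with filterByExpr of edgeR 4.0.16 in R 4.3.3, which left 13805, normalised with TMM factors and compared between Hom and WT livers by the quasi-likelihood test, with Benjamini-Hochberg adjustment over all tested genes and a threshold of 0.05. Within a group, the smallest chi-square between libraries was 23.8 per degree of freedom, beyond sampling noise, and none was counted as a repeat. The procedure was tested on simulated data. Alternatives were library size alone, upper-quartile factors, DESeq2 1.42.0, a minimum of 10 counts in each liver, no count filter, the replicate number as a block, a loess correction for gene length, each liver left out, and a minimum absolute log2 fold change of 1.

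Genes named were the members past the threshold, members with a mean of at least 10 TPM, their receptor or ligand partners, untested members with their counts (1 member is counted but not reported here), Nek7, and at most 2 genes in each direction from each other list. Clec4f, Ccrl2 and Csf1 were added after their values were seen. Lists covered markers of hepatocytes, cholangiocytes, Kupffer cells, monocytes and macrophages, neutrophils, T cells, NK cells, B and plasma cells, dendritic cells, sinusoidal endothelium, stellate cells and all leukocytes, and other chemokine, signalling, cytokine and transcription factor genes. The members and lists were chosen with earlier results of these data known. Upstream sequences are RefSeq's on GRCm38.p6, which is not the build listed for the counts, so that no coordinates are given apart from those of these sequences.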

Additional observations from a re-analysis of the deposited data

How the results depend on the processing

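Of 379 recomputed values of 30 named members, 308 kept their direction and side of the threshold, 56 no longer passed, 11 passed only then, and 4 changed sign (Cxcl12 and Cxcr2, to 0.32 each with library size alone and, without WT replicate 1, to 0.00 and 0.07, the upper ends of ranges from -0.24 and -0.35 with a liver left out). Of the 21 members past the threshold, 11 passed under every alternative run (among them Ccl2, Ccl9, Ccr1, Ccr2, Cx3cl1, Cx3cr1, Cxcl10, Cxcl14, Cxcl16 and Cxcr6). With at least 10 counts in every liver, 7 ligands and 3 receptors were higher, since fewer members were then tested. Lower ligands numbered 1 with library size alone or the gene length correction and 2 with upper-quartile factors, no filter, the replicate block or a minimum absolute log2 fold change of 1; the cause was not tested. With each liver left out in turn, higher ligands numbered 6 (without Hom replicate 2) to 13 (without WT replicate 3), lower ligands 0 (without Hom replicate 2) to 2, and higher receptors 5 to 8.

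Over all genes, library size alone gave 6574 higher and 642 lower, a minimum absolute log2 fold change of 1 gave 1825 and 575, and leaving out each liver gave 1986 to 3057 and 1767 to 2750. For the marker lists, 36 genes were higher and 23 lower, with 14 lower for library size alone and 21 to 49 higher when a liver was left out, 17 to 24 lower. For the other chemokine, signalling, cytokine and transcription factor lists, 28 were higher and 4 lower, which became 46 and 1 with library size alone and 18 to 35 and 3 to 5 with a liver left out.

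WT and Hom livers share replicate numbers but are different mice, and same-numbered livers did not deviate together (correlations of -0.109, -0.0563 and -0.0494). With the replicate block, 8 ligands were higher and 2 lower, and 5 receptors were higher. The higher calls lost were those of Ccl5 (adjusted p = 0.0934), Ccl19 (0.0831), Cxcr4 (0.0862) and Ccl12. The Ccl12 call was also lost with no filter (0.0577 to 0.0908 over these 2 settings). Depth limits the 21 untested members, and 3 mice a group limit every call near the threshold.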
